A study of Anguilla anguilla with 11 samples.

Results

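The transcripts described here were named or described as those of proteins that bind, break down or carry heme or iron. They were the predicted genes of the rete mirabile of the European eel (Anguilla anguilla) that were named hebp1 or hebp2, or whose description mentioned a heme-binding protein, heme oxygenase, hemopexin, ferritin or transferrin. Of the 45974 predicted genes (transcripts) listed, 21 met this rule. They comprised 5 transcripts named hebp2 and 1 named hebp1, 3 heme oxygenases, 1 hemopexin, 5 ferritins, 3 transferrins (melanotransferrin among them) and 3 transferrin receptors. The group was chosen by the relative expression values of hebp2 (g19898) in yellow and silver eels of these same libraries, so the stage difference of that transcript is given as a description without a test, while the remaining members were found by name or description.

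The rete mirabile is the countercurrent bundle of arterial and venous capillaries that supplies the swimbladder. Libraries were made from 5 yellow eels, the growing stage, and 6 silver eels, the stage that prepares for the spawning migration. All were wild females caught in Lake Constance and kept in freshwater, without a treatment that differed between the stages. All were anesthetized with 2-phenoxyethanol, decerebrated and pithed, and the rete vessels were flushed with heparinized saline until blood cells were gone before the tissue was dissected. Age was not given in the sources used here, and silver eels were the larger animals, so that stage and body size cannot be told apart. PolyA-selected RNA was sequenced as 1 stranded library per eel.

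By their titles the libraries fall into 2 sets, FG1835 with yellow eels 1 to 3 and silver eels 1 to 3, and FG1907 with yellow eels 4 and 5 and silver eels 4 to 6. Paired-end and single-end sequencing were both used in the study, and the sources used here do not say which library had which. Assigned counts summed to 9360429 to 12438185 per library. A relative expression value is a count divided by the size factor of its library. It is not corrected for transcript length, so levels of different transcripts are not ranked against each other. Endothelial markers such as cld5 (g6920, mean 14619 over 11 libraries) and vwf (g357, mean 11505) were abundant. Transcripts of esam, in the same list, had means of 0.153 (g42265) and 1.40 (g8033). Smooth muscle markers such as tagl (g17080, mean 37041), acta (g12122, 15471) and myh11 (g2226, 11478) were abundant, while desm had means of at most 39.3 (g18044). Keratins listed as swimbladder epithelium markers were abundant too, with k1c18 (g5911) at a mean of 11708 and k2c8 (g5912) at 4791. The other names of that list were low, with epcam (g7485) at a mean of 3.23. Means of cadh1 were at most 55.5 (g3555), and those of cld4 at most 29.2 (g4015). The 6 hemoglobin transcripts had means of 0.308 to 130 (hbaa, g28202). Silver eel 5 (library FG1907_02) stood apart, with a summed level of the 16 endothelial marker transcripts of 35050 against 50197 to 73438 in the other libraries, and differences that it changes are given with and without it.

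Heme is the iron-containing ring that hemoglobin, cytochromes and catalase use, and free heme and free iron promote the formation of reactive oxygen species. The hebp1 and hebp2 proteins belong to the SOUL family of small proteins, and hebp stands for heme-binding protein. Hemopexin binds heme in blood plasma. Heme oxygenase opens the ring and releases iron, carbon monoxide and biliverdin. Released iron is stored in ferritin, a hollow shell built of subunits, and transferrin carries iron in plasma to the transferrin receptor, which takes it into the cell.

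hebp2 (g19898), the transcript chosen on this contrast, was higher in silver eels. In yellow eels 1 to 5 its relative expression value was 569, 1289, 554, 1080.0 and 1313. In silver eels the lowest value was 1512.5, in silver eel 5, the median was 4716 and the highest was 12497, in silver eel 4. All 6 silver eels lay above all 5 yellow eels, by a narrow margin only in silver eel 5. The mean was 961 ± 376 in yellow (SD, n = 5) and 5696 ± 3799.9 in silver eels (SD, n = 6), a ratio of 5.93 that became 5.74 in CPM, counts scaled to the library total, and ranged from 4.51 to 6.80 when each library was left out in turn.

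The log2 difference of hebp2 (g19898) between silver and yellow eels was 2.56, from the contrast that chose the transcript, so it is not read as a test. Within FG1835 it was 2.43, where the 3 silver eels had 5227, 3666 and 4205. Within FG1907 it was 2.56, where the 3 silver eels had 12497, 1512.5 and 7068. In silver eels the values spread over a wider range in FG1907 than in FG1835, with the library that stood apart at the bottom.

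The same values of hebp2 (g19898) were also compared between the library sets, a contrast that did not choose it, with the stage in the model. Its log2 difference, FG1907 against FG1835, was 0.63 (standard error 0.41, adjusted p = 0.238, edgeR quasi-likelihood test). Without silver eel 5 it was 0.87 with an adjusted p of 0.0194, so 1 library decided that call. Over all transcripts the calls also rose without that eel, from 9250 of 23981 to 11281 of 23533.

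The other hebp2 transcripts did not share this pattern in their values. hebp2 (g19818) had 3136, 2786, 1744, 4788 and 2241 in yellow eels 1 to 5. In silver eels it had 1809 at the lowest, 3207 at the median and 5174 at the highest. The stages overlapped along most of their range, and the log2 difference was 0.12 (standard error 0.30, adjusted p = 1.00, edgeR). Silver eel 5 was again the lowest of the silver eels.

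**Figure D1:**
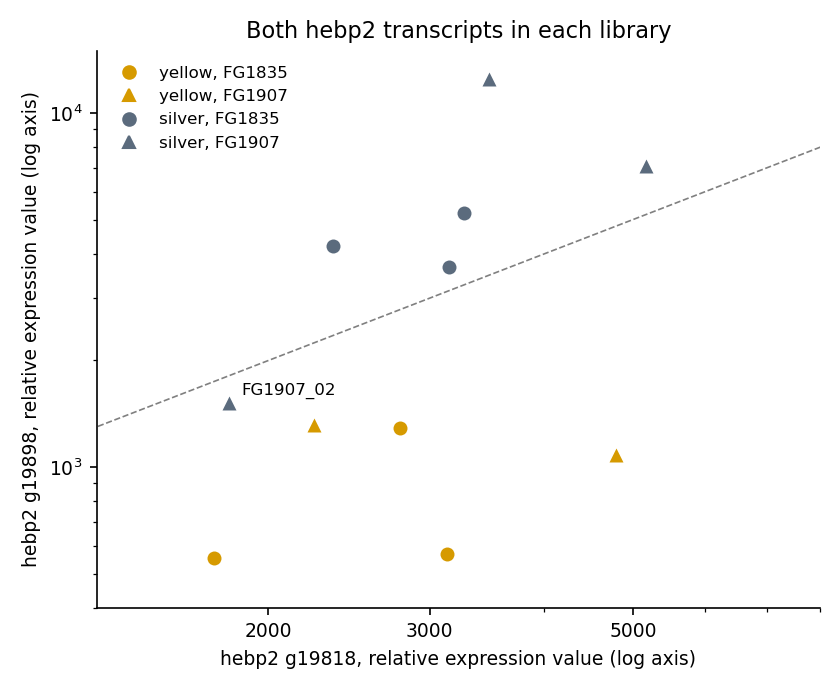
Relative expression values of hebp2 g19818 (x axis, log scale) and hebp2 g19898 (y axis, log scale) in the 11 libraries, with the stage as colour and the library set as symbol, and the dashed line where both are equal. The 5 yellow eels lie at g19898 values of 554 to 1313 and below the line, while 5 of the 6 silver eels lie above it and FG1907_02 lies just under it.

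The counts of these 2 transcripts were set against each other within each library, which removes the size factor. hebp2 (g19898) amounted to 0.181 to 0.586 of hebp2 (g19818) in yellow eels (mean 0.355 ± 0.168, SD, n = 5) and to 0.836 to 3.59 in silver eels (mean 1.72 ± 0.974, SD, n = 6). The ratio of silver eel 5 was the lowest of the silver eels and still above every yellow eel. As a share of all reads of hebp2 transcripts, g19898 held 12.8% to 32.0% in yellow and 37.9% to 74.5% in silver eels. These ratios rest on the contrast that chose the transcript and are not tested. Because transcripts of 1 name can share reads where their sequences are alike, the division between them is uncertain.

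hebp2 (g5095) was the steadiest of the hebp2 transcripts. It had 669, 679, 879, 705 and 541 in yellow eels 1 to 5 and 614 at the lowest, 745 at the median and 1072 at the highest in silver eels. Its log2 difference was 0.15 between stages (standard error 0.20, adjusted p = 1.00, edgeR) and -0.27 between library sets (standard error 0.17, adjusted p = 0.216). Neither difference was larger than the spread between eels.

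hebp2 (g2668) was lower in FG1907. Its values in FG1835 were 70.8, 154 and 87.3 in yellow and 146, 159 and 242 in silver eels. In FG1907 they were 79.2 and 11.1 in yellow and 101, 50.1 and 17.6 in silver eels. The log2 difference between the sets was -1.50 (standard error 0.49, adjusted p = 0.0297, edgeR), with 143 ± 60.9 in FG1835 (SD, n = 6) and 51.8 ± 38.6 in FG1907 (SD, n = 5). The call was kept in 7 of 11 fits that left out 1 library and was lost without yellow eel 2, yellow eel 5, silver eel 3 or silver eel 6, with adjusted p between 0.0552 and 0.0648. Between stages the difference was 0.56 (standard error 0.63, adjusted p = 1.00).

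The remaining hebp transcripts were at or near the floor. hebp2 (g7331) had a count of 0 in each of the 11 libraries, which allows up to 0.320 CPM in the shallowest of them, for counting error alone. hebp1 (g10979), whose protein binds heme in mammals, had counts in 2 of 11 libraries and no more than 2 in either. The deposited similarity to the protein that gave each its name, a fraction, was 0.4667 to 0.5633 for the hebp2 transcripts, so these names rest on partial likeness. For hebp2 (g19898) it was 0.5178.

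Hemopexin (hemo, g10869), the plasma protein that takes up free heme and that the liver makes in mammals, did not pass the filter on low counts. It was listed with 0 to 46.4 in yellow and 1.08 to 59.1 in silver eels. Its higher values were 46.4 in yellow eel 5, 55.0 in silver eel 3 and 59.1 in silver eel 4. The 13 liver plasma protein transcripts summed to 10.96 to 130 per library. Of them 3, of apolipoproteins B and A-I, were at 0 in all libraries. Another apolipoprotein B transcript, apob (g6315), had 0 to 14.5 per library and was the only 1 of the 13 that passed the filter.

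Heme oxygenase was present at low counts. hmox (g7816), of the enzyme that cleaves heme, had 40.7, 105, 147, 46.4 and 128 in yellow eels 1 to 5 and 58.5 at the lowest, 127 at the median and 178 at the highest in silver eels. Both stages held low and high eels, and the log2 difference was 0.41 (standard error 0.40, adjusted p = 1.00, edgeR). Between the sets it was 0.17 (standard error 0.39, adjusted p = 0.763). A second transcript, hmox (g22319), had a mean of 17.7, and its highest value, 59.5, was in silver eel 5. Without that eel its stage difference went from 0.72 to 0.08.

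hmox2 (g43492), of the heme oxygenase that mammals express without induction, had a wide spread in both stages. Its values in FG1835 were 36.6, 53.9 and 65.5 in yellow and 44.0, 26.0 and 43.5 in silver eels. In FG1907 they were 14.7 and 16.7 in yellow and 27.8, 73.0 and 28.2 in silver eels. Silver eels lay above yellow eels in FG1907, and both stages overlapped in FG1835. The log2 difference between stages was -0.46 in FG1835 and 1.48 in FG1907, and the test of that difference gave 1.93 (standard error 0.71, unadjusted p = 0.0193, adjusted p = 0.920, edgeR), which fails the adjustment. Without silver eel 5, which had the value of 73.0, the interaction was 1.28 (standard error 0.58) and the stage difference over both sets went from 0.10 to -0.16. Its difference between the sets was -0.60 with all libraries (adjusted p = 0.314) and -1.05 without silver eel 5 (adjusted p = 0.0239). In yellow eels alone it was -1.83 (adjusted p = 0.0131), and in silver eels alone it turned to 0.14 (adjusted p = 0.870).

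**Figure D2:**
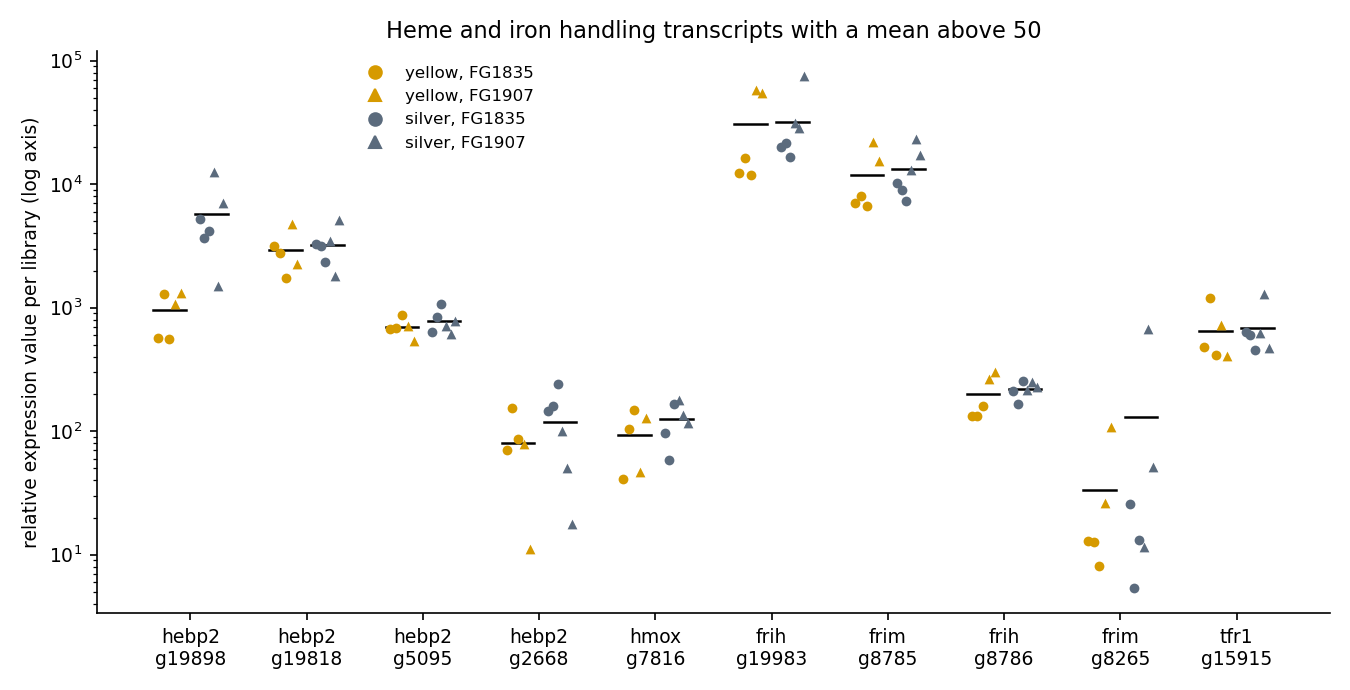
Relative expression value per library (log axis) of the 10 transcripts with a mean above 50, yellow eels left and silver eels right of each name, circles for FG1835, triangles for FG1907 and bars for stage means. Only hebp2 g19898 has its 6 silver eels, from 1512.5, above its 5 yellow eels, up to 1313, and both high ferritins (g19983, g8785) have their triangles above their circles.

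Of the 5 ferritin transcripts 3 passed the test between the library sets, all higher in FG1907, where 38.6% of all transcripts passed it. frih (g19983), of the heavy subunit that oxidizes iron on its way into the shell, had 12314.5, 16262 and 11778 in the yellow and 20067, 21527 and 16718 in the silver eels of FG1835. In FG1907 it had 58073 and 54670.0 in yellow and 31387, 28485 and 74732.5 in silver eels. Every library of FG1907 lay above every library of FG1835. The log2 difference between the sets was 1.59 (standard error 0.28, 3.01-fold, adjusted p = 0.00127, edgeR), and the call held in 11 of 11 fits with 1 library left out (1.39 to 1.76).

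Within the yellow eels alone the difference of frih (g19983) between sets was 1.95 (adjusted p = 0.00126). Within the silver eels alone it was 1.13 with an adjusted p of 0.142, where the 3 FG1907 values were far apart. Between stages frih (g19983) had 30619.5 ± 23603 in yellow (SD, n = 5) and 32153 ± 21560.5 in silver eels (SD, n = 6), a log2 difference of 0.07 (standard error 0.52, adjusted p = 1.00). It was 0.52 within FG1835 and -0.33 within FG1907.

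frim (g8785), of the middle subunit that fish and amphibians have besides the heavy one, followed the same order of sets. In FG1835 it had 7070.2, 8035 and 6614 in yellow and 10186.5, 8939.8 and 7312 in silver eels. In FG1907 it had 22149.9 and 15314 in yellow and 13032, 23159 and 17147 in silver eels. Again no library of FG1907 fell into the range of FG1835. The log2 difference was 1.17 (standard error 0.20, 2.25-fold, adjusted p = 0.00100, edgeR) and was called in 11 of 11 fits with 1 library left out. In silver eels alone it was 0.96 with an adjusted p of 0.122. Between stages it was 0.17 (standard error 0.39, adjusted p = 1.00) and turned to -0.07 without silver eel 5.

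The heavy and middle transcripts moved together over the 11 libraries (Pearson r 0.85 on log2 values, across libraries that share the set difference). Their ratio, g19983 over g8785, was 1.74 to 2.41 in FG1835 and 1.23 to 4.36 in FG1907, with the lowest ratio in silver eel 5 and the highest in silver eel 6. The 5 ferritin transcripts summed to 18581 to 30639 in FG1835 and 44682 to 92186 in FG1907, which was 0.190% to 0.747% of all assigned counts. Read length or pairing, where it differed between sets, cannot be told apart from the set.

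frih (g8786), a second heavy subunit transcript, showed opposite stage differences in the sets. In FG1835 the yellow eels had 132, 134 and 160.0 and the silver eels 212, 166 and 253. In FG1907 the yellow eels had 264 and 303 and the silver eels 214, 249 and 227. Silver eels lay above all yellow eels in the first set and below them in the second. The stage difference was 0.56 in FG1835 and -0.28 in FG1907, and the interaction was -0.84 (standard error 0.34, unadjusted p = 0.0312, adjusted p = 0.920, edgeR), which fails the adjustment. Of all transcripts tested, 0.788% had opposite stage differences without overlap in the sets. Between sets the difference was 0.51 (standard error 0.20, adjusted p = 0.0598), and it passed without silver eel 3, silver eel 4 or silver eel 6, with adjusted p of 0.0255, 0.0437 and 0.0478. It was 0.89 in yellow eels alone (adjusted p = 0.0236) and 0.06 in silver eels alone (adjusted p = 0.902).

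frim (g8265), a second middle subunit transcript, was low in most libraries. Its values were 13.01, 12.6, 8.18, 26.0 and 108 in yellow eels 1 to 5, and 26.0, 5.42, 13.1, 11.6, 668 and 51.7 in silver eels 1 to 6. The value in silver eel 5 was over that of every other library, and yellow eel 5 came next. The log2 difference between sets was 3.41 (standard error 0.90, adjusted p = 0.0107, edgeR) and 1.86 without silver eel 5 (adjusted p = 0.0189). In limma it was 2.42 with an adjusted p of 0.0774, so that the call was lost. Between stages it was 1.96 (standard error 1.21, adjusted p = 1.00) with silver eel 5 and -0.65 without it. Its libraries of the 2 sets overlapped, with 5.42 to 26.0 in FG1835 and 11.6 to 668 in FG1907. frih (g42713) had a mean of 19.3 and did not differ between the sets beyond its error (0.74, standard error 0.61, adjusted p = 0.356).

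**Figure D3:**
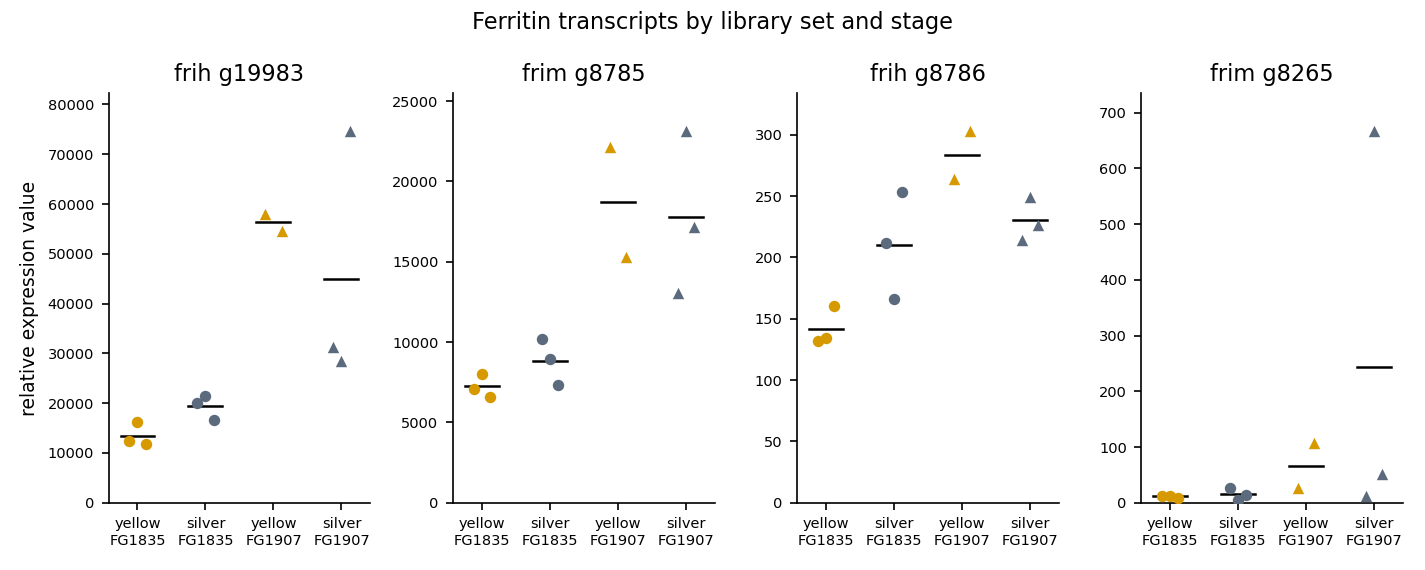
Relative expression values (linear axes from 0) of 4 ferritin transcripts by stage and library set, with points for libraries and bars for group means. frih g19983 and frim g8785 are higher in all FG1907 libraries, frih g8786 has silver above yellow eels in FG1835 and below them in FG1907, and frim g8265 has 1 high library at 668.

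Iron uptake was represented by the transferrin receptor. tfr1 (g15915), which takes up iron-loaded transferrin, had 485, 1195, 416, 726 and 406 in yellow eels 1 to 5. In silver eels it had 451 at the lowest, 617 at the median and 1290.3 at the highest, in silver eel 5. Apart from yellow eel 2 and silver eel 5 both stages lay in the same range, and the log2 difference was 0.08 (standard error 0.35, adjusted p = 1.00, edgeR), or -0.22 without silver eel 5. Between the sets it was 0.15 (standard error 0.35, adjusted p = 0.768), or -0.18 without silver eel 5. A second receptor transcript, tfr1 (g11498), had a mean of 45.8 ± 9.07 (SD, n = 11) with log2 differences of -0.13 between stages (standard error 0.28) and 0.05 between sets (standard error 0.26), both within their error.

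The plasma carriers were nearly without reads. Melanotransferrin (trfm, g25165), a membrane-bound relative of transferrin, had a mean of 3.92, transferrin (trf, g37532) had 1.82, serotransferrin (trfe, g14933) had 0.966 and the receptor tfr2 (g4893) had 1.51. All 4 had a count of 0 in at least 3 libraries, and none passed the filter. Hemoglobin transcripts summed to 83.8 to 913 per yellow and 34.7 to 576 per silver eel, and the 13 red blood cell transcripts together to 499 to 1239 and 344 to 1017. In the second list rhag (g27241) had a mean of 507 and a log2 stage difference of 0.09, while b3at (g2522) had a mean of 1.38. The ranges of the stages overlapped in both lists, with the higher medians in yellow eels, in which hebp2 (g19898) was lower, and their part in the result was not tested.

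Of the 21 members, 14 passed the filter and were tested, and 10 had a mean above 50. The stage counts leave out hebp2 (g19898), which this contrast chose. Of the other 13 members, 0 passed an adjusted p under 0.05 in edgeR, where 0% of all 23981 transcripts did. At an unadjusted p under 0.01, the study's threshold, 0 passed, beside 0.413% of all transcripts, and at one under 0.05 also 0, beside 2.15%. DESeq2 and limma called 0 of them at an adjusted p under 0.05, with no p in DESeq2 for 1. Differences above 0 were found in 12 of the 13, beside 50.8%. Without FG1907_02 the log2 differences of frim (g8785, -0.07), tfr1 (g15915, -0.22), frim (g8265, -0.65) and hmox2 (g43492, -0.16) turned negative. That of tfr1 (g11498) was negative with and without this library (-0.13 and -0.24), and those of the remaining members stayed above 0. The count of 12 thus depended on FG1907_02, and no shared rise is read from it. The silver eels lay above the yellow eels without overlap in 1 of all 14 tested members, hebp2 (g19898), beside 0.113% of all transcripts, from which nothing is read. The median log2 difference was 0.16 over the 14 members and 0.15 without hebp2 (g19898), beside 0.0046 over all transcripts. The edgeR stage fit had no term for the library set, so that differences between the sets entered its error. It had 515 of 23981 transcripts at an unadjusted p under 0.05. With the set as a term there were 973, and 0 passed the adjustment.

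Between the library sets 4 of the 14 members passed an adjusted p under 0.05 in edgeR, beside 38.6% of all transcripts, so the share of members was not above the background. Without silver eel 5 there were 6, while the calls over all transcripts rose from 9250 of 23981 to 11281 of 23533. At an unadjusted p under 0.05 there were 5, beside 48.4%. Higher in FG1907 were frih (g19983), frim (g8785) and frim (g8265), 3 members beside 19.5% of all transcripts, and lower was hebp2 (g2668), 1 member beside 19.0%. Libraries of FG1907 lay above those of FG1835 without overlap in 2 members, beside 10.0%. The median log2 difference was 0.42 over the members and 0.025 over all transcripts. Of the smooth muscle and pericyte markers 7 of 12 tested transcripts were lower in FG1907 and 0 higher (median log2 difference -0.92). The lower ones were all transcripts of pgfrb or myh11. tagl (g17080, -0.17) and acta (g12122, -0.40) did not pass, nor did cnn1 (g14833, 0.59) and desm (g18044, 1.49, and g35907, 0.05). Of the endothelial markers 5 of 14 were lower, of cadh5, tie1 and tie2, and 2 higher, of vwf. Of the leukocyte markers 4 of 19 were lower and 2 higher. The summed smooth muscle and pericyte markers were 61946 to 84353 in FG1835 and 37053 to 95196 in FG1907, endothelial markers 52146 to 67637 and 35050 to 73438, and leukocyte markers 10241 to 18247 and 5906 to 15783. Swimbladder epithelium markers, 30 transcripts of which 3 were at 0 in all libraries, summed to 18229 to 26017 and 23061 to 25495. Of the 13 tested, 2 were higher in FG1907, with k1c18 (g5911, 0.60) among them, and 4 lower, with k2c8 (g5912, -0.53) among them. The part of these cell types in the set differences was not tested. In a bulk sample, fewer cells of a type and less RNA per cell cannot be told apart.

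The stage difference differed between the sets in 0 of the 13 members other than hebp2 (g19898) at an adjusted p under 0.05 in edgeR, beside 0% of all transcripts, and DESeq2 also called 0. At an unadjusted p under 0.05 there were 3, hmox2 (g43492), frih (g8786) and hmox (g22319), beside 4.94%. Without silver eel 5 there were 2, beside 1105 of 23533 transcripts, and hmox (g22319) had an unadjusted p of 0.105.

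**Figure D4:**
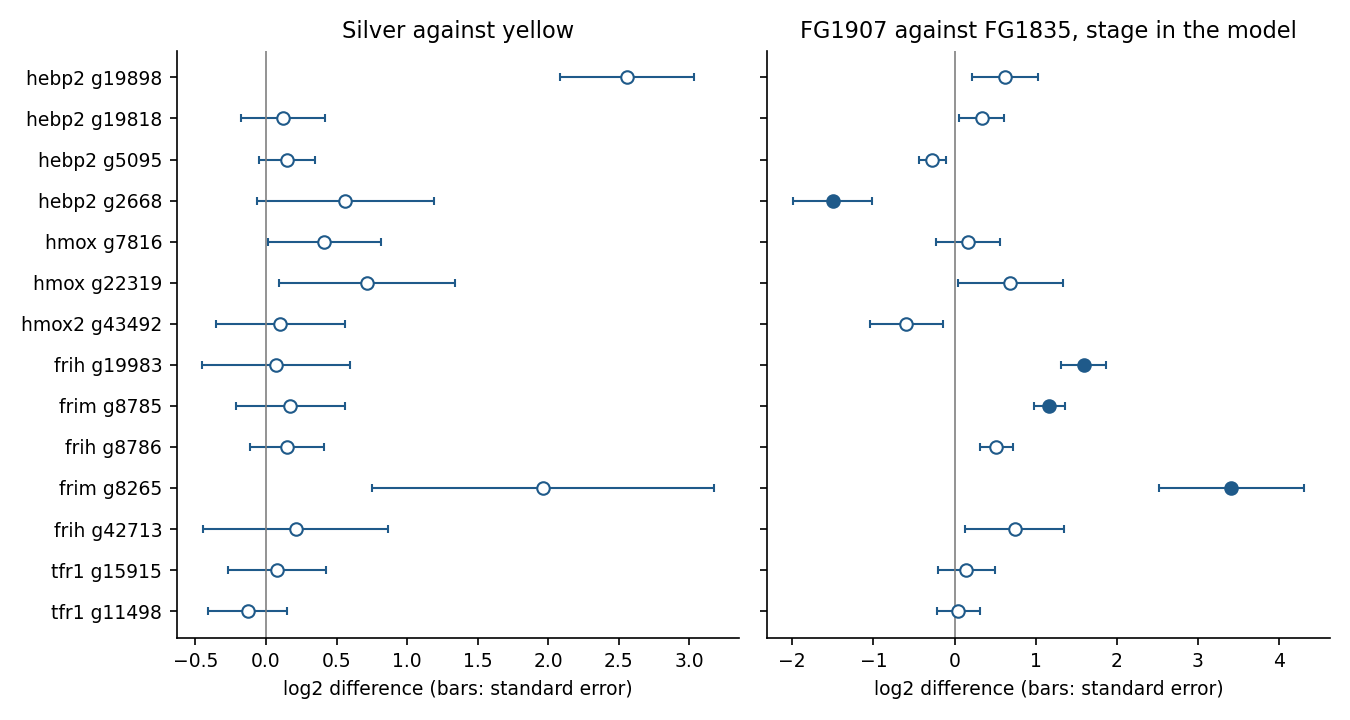
Log2 differences of the 14 tested members between stages (left) and between library sets (right), with standard errors as bars and filled points for an adjusted p under 0.05 between sets. hebp2 g19898 lies at 2.56 between stages, the contrast that chose it, so its bar there is not read as a test. The filled points are frih g19983, frim g8785, frim g8265 and hebp2 g2668.

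The members were then set beside other genes of heme and iron metabolism, listed by name in 4 lists with 93 transcripts, of which 67 were tested. Between stages 2 of the 67 passed an unadjusted p under 0.01 in edgeR, beside 0.413% of all transcripts. These were abcg2 (g9513), an efflux pump that carries porphyrins, at 105 ± 76.0 in yellow eels against 13.1 ± 5.73 in silver eels, and hrg1b (g20857), of a heme transporter family, at 49.0 ± 16.9 against 23.7 ± 8.58 (SD, n = 5 and 6). The unadjusted p of hrg1b was 0.00966, close to the threshold, and the count fell to 1 with another scaling, without the filter and without most single libraries. The low value of abcg2 in silver eels was known from earlier results of these libraries. Between the sets 24 of the 67 passed, 17 higher and 7 lower in FG1907, which is 35.8% beside 38.6% of all transcripts.

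No transcript of heme synthesis passed a threshold between stages in edgeR. The list had 13 tested transcripts and a median log2 difference of -0.03 between stages. Past an unadjusted p under 0.05 were 0 of them, beside 2.15% of all transcripts. hem1 (g2255), the first enzyme of heme synthesis outside red cells, had 689 ± 134 in yellow and 758 ± 264 in silver eels. Ferrochelatase (hemh, g4988), which inserts the iron, had 245 ± 46.6 and 272 ± 91.0, and the membrane progesterone receptor component pgrc2 (g21758) had 1999 ± 613 and 2132 ± 338. Between sets 2 of 13 passed, 15.4% beside 38.6% of all transcripts. They were dcup (g15074), uroporphyrinogen decarboxylase, with a log2 difference of 0.80 and pgrc1 (g24041) with -1.11.

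In heme breakdown and transport 4 of 11 tested transcripts passed between the sets, 36.4% beside 38.6% of all transcripts, all of them higher in FG1907. They included biea (g19422), the reductase that turns biliverdin into bilirubin, with 133 in FG1835 and 298 in FG1907 (log2 difference 1.14, adjusted p = 0.00319), the heme exporter flvc1 (g11959) with 389 and 777 (1.01, adjusted p = 0.00493) and pcft (g8573), a folate carrier that also takes up heme, with 11.2 and 36.6 (1.73). A second flvc1 transcript (g11960) had 189 and 123 and did not pass (-0.67, adjusted p = 0.0654). hrg1a (g13304) stayed between 424 and 745 in all libraries. The median log2 difference of the list between sets, 0.42, was near that of the members. Between stages 3 of the 11 passed an unadjusted p under 0.05 in edgeR, beside 2.15% of all transcripts. They were hrg1b (g20857), abcg2 (g9513), which was known from earlier results of these libraries, and flvc2 (g3318). flvc2 (g3318) had 234 in yellow and 344 in silver eels (log2 difference 0.55, unadjusted p = 0.0402).

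In iron transport, storage and control 9 of 24 tested transcripts passed between the sets, 37.5% beside 38.6% of all transcripts, 7 higher and 2 lower in FG1907. acoc (g7425), cytosolic aconitase, which as an apoprotein binds ferritin and transferrin receptor mRNA, had 192 in FG1835 and 422 in FG1907 (log2 difference 1.13, standard error 0.16), and a second transcript of that name, acoc (g43093), had 14.6 and 37.6 (1.32). The ferric reductase stea3 (g7684) had 183 and 357 (0.94), the mitochondrial iron importer mfrn2 (g3281) 820.2 and 1284 (0.62), and ceruloplasmin (ceru, g17060), a ferroxidase of plasma, 4.89 and 50.9 (3.33). Ferroportin (s40a1, g6955), the iron exporter of cells, had 954 and 679 and did not pass (-0.49, adjusted p = 0.344), nor did stea4 (g4046) with 906 and 1205 (0.31). Transcripts of mfrn2 did not all move together, while those of s40a1 all had negative differences. The 2 lower calls of the list were mfrn2 (g10648) with 59.4 and 26.3 (-1.17, adjusted p = 0.00744) and s40a1 (g43874) with 70.9 and 33.6 (-1.11, adjusted p = 0.0288), while mfrn2 (g3280) had 421 and 289 (-0.59) and s40a1 (g9148) had 669 and 429 (-0.66), neither past the test. Between stages 0 of these transcripts passed an unadjusted p under 0.01, beside 0.413% of all transcripts, and 1 passed under 0.05, beside 2.15%.

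Of the regulators and oxidant-responsive targets 9 of 19 tested transcripts passed between the sets, 47.4% beside 38.6% of all transcripts, 5 higher (19.5% of all) and 4 lower (19.0% of all). nf2l2 (g9896), the factor Nrf2 that mammals use to induce heme oxygenase and ferritin genes, had 2654 in FG1835 and 2553 in FG1907 (log2 difference -0.07, adjusted p = 0.793), and the small Maf protein maff (g19274) had 1492 and 1417. keap1, which holds Nrf2 in check, had 534 and 872 in g23808 (0.70) but 402 and 236 in g22447 (-0.83, adjusted p = 0.0242), and the autophagy adaptor sqstm had 2529.6 and 4739 in g17541 (0.87) and 144 and 415 in g34565 (1.52). Of the related factor nf2l1, transcripts g20813 with 374 and 213 (-0.85), g35830 with 23.4 and 1.87 (-3.50) and g45589 with 15.9 and 6.93 (-1.17) were lower in FG1907, while g13557 had 198 and 208 (0.06, adjusted p = 0.837). Also called higher were gsh0 (g9020) with 797 and 1277 (0.66) and trxr1 (g33738) with 17.1 and 34.6 (0.98). gsh1 (g2887, -0.14), srxn1 (g19644, -0.52) and another nf2l2 transcript (g42923, 0.53) did not pass. The second transcripts of flvc1, mfrn2, s40a1, keap1, nf2l1 and nf2l2 were named after their values were seen. So were flvc2, gsh0, gsh1, trxr1 and srxn1. The quinone reductase transcript nqo1 (g9710) was listed at 0 in all libraries.

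**Figure D5:**
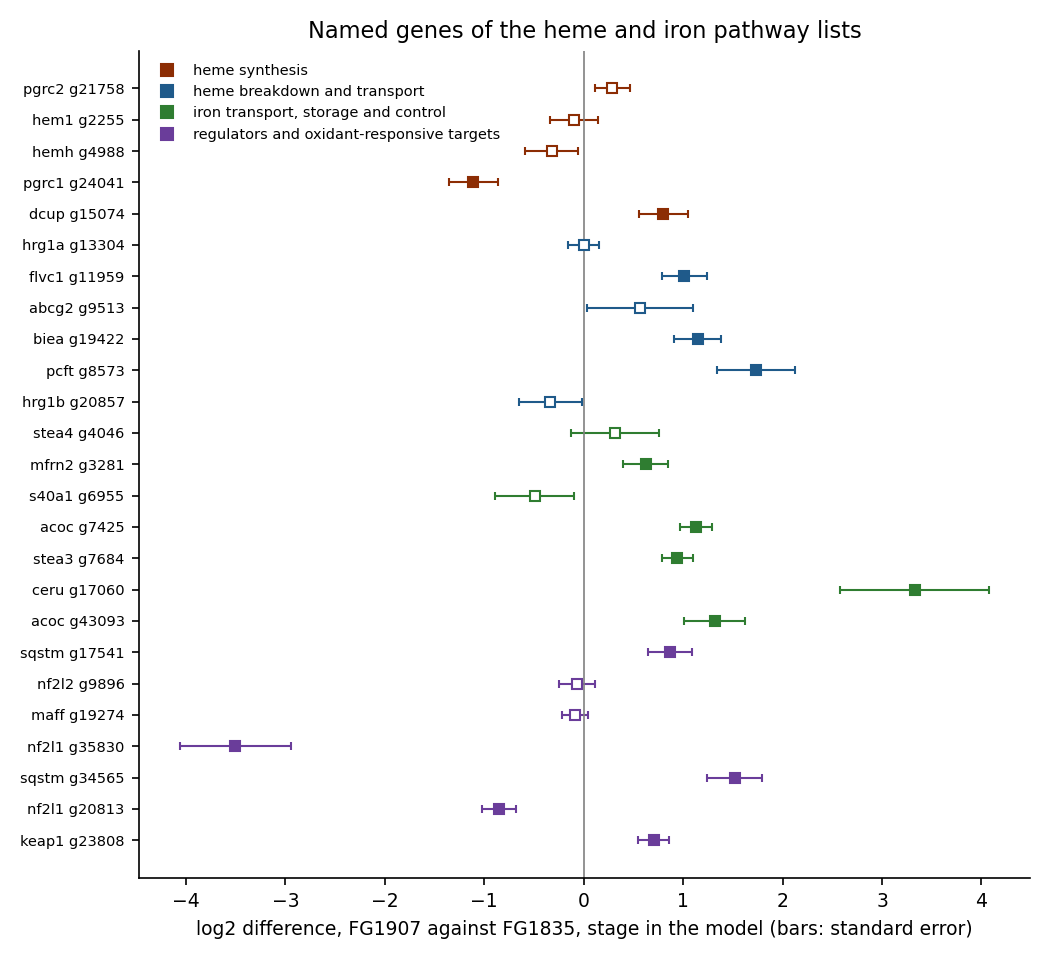
Log2 differences between library sets (FG1907 against FG1835, stage in the model, bars for standard errors) of pathway transcripts chosen by highest mean or smallest p, coloured by list and filled for an adjusted p under 0.05. Points lie on both sides of 0, from nf2l1 g35830 at -3.50 to ceru g17060 at 3.33.

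The transcripts whose values were most like those of hebp2 (g19898) were looked up among 13223 named transcripts with a mean above 50, by the Pearson r of log2 relative expression values over the 11 libraries, which share stage and set, so that no p is given. The highest r belonged to tm111 (g63), a transmembrane protein (0.94), the translation initiation factor if4e2 (g3869, 0.86), angl4 (g1879), a secreted inhibitor of lipoprotein lipase (0.86), ca031 (g17048, 0.84) and anky2 (g284, 0.84). The lowest were those of the bicarbonate cotransporter s4a7 (g8954, -0.95), the protocadherin fat1 (g30086, -0.88) and the protease mmp11 (g4963, -0.87). Means of angl4 were 766 ± 231 for yellow eels and 1749 ± 641 for silver eels, and those of s4a7 were 221 ± 72.7 and 59.2 ± 34.8. tm111 moved far less than hebp2, with 1038 ± 92.4 and 1240 ± 130.2. Among members, r with hebp2 (g19898) was 0.43 for hebp2 (g19818), 0.41 for hmox (g7816), 0.35 for frih (g19983) and -0.03 for tfr1 (g15915).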

How the data were processed

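PolyA-selected RNA from the rete of 5 yellow eels and of 6 silver eels was sequenced, 1 library for each. By the methods and the submitters' processing notes, the authors used TopHat2 2.0.13 with the draft eel genome, SAMtools 1.2 to drop secondary alignments, HTSeq 0.6.1p1 for counting and DESeq for the stage comparison. The raw counts of the authors' table were used as deposited. Its base means are a deposited signal, counts divided by size factors by the authors, and the mean of the relative expression values computed here deviated from them by at most 0.0107%. The deposited similarity of each gene to its namesake is a fraction. The authors' columns of fold changes and p-values were not used. The column FG1935_03 was read as library FG1835_03, the title left without a column. The tissue label was followed, although the extraction text speaks of gas gland. Genes carry the names of the deposited table, and no genome of its build was used, so coordinates and sequences are not given.

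The members and the lists of pathway genes and markers were chosen with earlier results of these data known. Size factors were medians of ratios. Stages, library sets (with stage as a term) and their interaction were tested with edgeR 4.0.16 (TMM, filterByExpr by stage, quasi-likelihood test, R 4.3.3) over 23981 transcripts, with Benjamini-Hochberg adjustment over all of them and a threshold of 0.05. Each standard error was derived from the F statistic of its difference. Relative expression values had a pseudocount of 1 in correlations. The stage and set fits were first tested on simulated data. Named were all members with a mean above 50, per pathway list the 3 with the highest mean and up to 4 past a threshold by p, and the 5 most like and 3 least like hebp2. A single gene that falls under the naming rule is not shown. Alternatives were other scalings, filters, robust estimation, DESeq2 1.42.0, limma 3.58.1, each set or stage alone, other model terms and each library left out. The set term without FG1907_02 was added after the data had been seen. Marker hits whose description names another protein were removed. Software for tables and plots was Python 3.11.15, numpy 2.4.6, pandas 2.3.3 and matplotlib 3.10.9.

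The total of assigned counts in a library had a median of 11743685 in yellow eels (10555968 to 12096239) and 10263075 in silver eels (9360429 to 12438185), and intervals and floors cover counting error only. Each library is 1 eel, so the spread is that between eels.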

Additional observations from a re-analysis of the deposited data

Results flagged for a closer look

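Dixon's criterion was applied to each stage of the 10 members above 50, in 20 groups. For normally distributed values chance alone passes about 1 in 20. The values were not log-transformed and each stage held both library sets, so that rate need not hold here. It picked out 4 values. frih (g19983) was 74732.5 in silver eel 6, while the other silver eels had 16718 to 31387 (gap over range 0.747, limit 0.625). tfr1 (g15915) was 1290.3 in silver eel 5, the library FG1907_02, beside 451 to 638 in the others (0.778). frim (g8265) was 668 in that same library beside 5.42 to 51.7 (0.930), and in yellow eel 5 it was 108 beside 8.18 to 26.0 in the other yellow eels (0.821, limit 0.710). All 4 values were from libraries of FG1907, the set in which frih (g19983) and frim (g8265) were called higher. Of these 4 values, 2 were from FG1907_02, in which the summed endothelial markers, 35050, were below those of the other libraries.

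The stage difference of frih (g8786) ran in opposite directions in the library sets, with all silver eels above the yellow eels in FG1835 and all below them in FG1907. The interaction was -0.84 on the log2 scale, and its adjusted p over all transcripts was 0.920 in edgeR.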

How the results depend on the processing

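hebp2 (g19898) had a positive stage difference in every alternative run. The runs used the same eels, in which every silver eel lay above every yellow eel, so nothing is read from that sign. Because the stage contrast chose hebp2 (g19898), it is left out of the stage counts. Of the other 13 members, 0 had an adjusted p under 0.05 between stages in DESeq2, in limma and without silver eel 5. Of all transcripts, DESeq2 called 25 of the 30048 with an adjusted p, and the other 2 settings called 0. In FG1835 alone 4 members, counted with hebp2 (g19898), had an unadjusted p under 0.05, beside 1800 of 24657 transcripts. Nothing is read from that count. The 4 members called between sets became 0 in silver eels alone, where 548 of all 17749 transcripts tested were called. They were 3 to 6 with a library left out, where 7134 to 11281 of all transcripts were called. Pathway transcripts at an unadjusted p under 0.01 between stages fell from 2 to 1 with median-of-ratios scaling, no filter and FG1907 alone. Of all transcripts 98 of 23981, 229 of 39516 and 121 of 23319 passed in these settings, in that order. The limit of 50 also left 1, beside 70 of 15070, because hrg1b (g20857), at a mean of 35.2, was not tested there. Pathway transcripts also fell to 1 with the set term without FG1907_02, beside 377 of 23533. They were 1 to 2 with a library left out, where 87 to 145 of all transcripts passed. Between sets the 24 became 14 in yellow and 0 in silver eels alone, where 5849 of 19080 and 548 of 17749 transcripts were called. By Spearman's rho 2 of the 5 most like hebp2 were shared.

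Stage differences turned in FG1907 alone for frih g19983 (-0.33), frim g8785 (-0.048), hebp2 g19818 (-0.0069), frih g8786 (-0.28) and tfr1 g11498 (0.17), in FG1835 alone for tfr1 g15915 (-0.32), hmox2 (-0.46) and hmox g22319 (-0.63), in limma for frih g42713 (-0.11), and with the set term without FG1907_02 for tfr1 g15915 (-0.21), frim g8265 (-0.28) and hmox2 (-0.0033). With a library left out they ranged from -0.37 to 0.42 for frih g19983, -0.074 to 0.52 for frim g8785, -0.065 to 0.36 for hebp2 g19818, -0.22 to 0.41 for tfr1 g15915, -0.65 to 3.13 for frim g8265, -0.16 to 0.40 for hmox2 and -0.029 to 0.68 for frih g42713. Set differences turned in yellow eels alone for tfr1 g15915 (-0.42), hmox g7816 (-0.25) and tfr1 g11498 (-0.34), and in silver eels alone for hmox2 (0.14). With a library left out they were -0.18 to 0.43, -0.018 to 0.43 and -0.098 to 0.16 for the first 3. None of these turned values passed an adjusted p under 0.05, and the cause was not tested.

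No paired analysis was possible because the replicate numbers follow the order of the libraries and pair no eels. Sets of 6 and 5 libraries, uncertain names of multigene families and reads shared between alike transcripts limit the member values.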
